A study of Mus musculus with 12 samples.

Results

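The 10 genes described here, Dusp4, Dusp5, Dusp6, Spry1, Spry2, Spry4, Spred1, Fosl1, Etv4 and Etv5, are feedback inhibitors and transcription factors that are widely used as RNA readouts of the ERK pathway. They were taken by gene name from a table of raw read counts that held 49671 gene rows, and all 10 were found and were among the 15271 genes with enough counts to be tested. ERK is the last kinase of the RAS-RAF-MEK-ERK cascade, which receptor tyrosine kinases such as KIT, the receptor for KIT ligand, switch on from the cell surface. Active ERK raises transcription of factors that carry its signal further, among them the AP-1 subunit FOSL1 and the ETS factors ETV4 and ETV5. It also raises transcription of proteins that restrain it: the DUSP phosphatases remove the activating phosphates from MAP kinases, and the Sprouty and SPRED proteins act upstream, between the receptor and RAF.

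The libraries came from ImPSC-1, a mouse pancreatic stellate line; this mesenchymal cell type lays down matrix when activated. Poly(A) RNA was sequenced from 12 libraries in 4 groups of 3, all of them stable derivatives of this line. Kitl_OE overexpressed Kitl, the gene of KIT ligand, and its control Egfp_OE overexpressed Egfp, a fluorescent protein. shKitl carried a short hairpin RNA that knocks Kitl down, and its control shCtrl, labelled WT for genotype, carried a control vector. The design asks what KIT ligand made by the mesenchymal cells does in those cells. The labels do not say whether a derivative is a single clone, or whether replicates were separate cultures, so that p-values measure the spread between these libraries, which may be technical. Each sample description also carries a P number, 18, 19 and 20 in Kitl_OE, 17, 18 and 19 in Egfp_OE, 13, 14 and 15 in shKitl and 14, 15 and 16 in shCtrl, whose meaning the labels do not give.

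Counts in genes ran between 24979742 and 33517686 per library. Kitl had 125, 114 and 128 CPM (read counts scaled to a common library size, with TMM correction for composition) in Kitl_OE, against 72.4, 31.8 and 72.2 CPM in Egfp_OE. It had 25.1, 25.5 and 30.3 CPM in shKitl, against 73.4, 73.5 and 76.3 CPM in shCtrl. Both pairs were apart in the labelled direction, although the edgeR adjusted p was 0.00836 for overexpression and 0.121 for knockdown. Egfp_OE replicate 2 stood apart, with 1.35% of its counts in spike-in RNAs against 0.446% to 0.684% in the other 11 libraries. It was also the low Kitl library of its group, and without it the Kitl log2 fold change of 1.06 was 0.77. It is named below beside several results that it moves. Kit itself had 0 to 2 counts in every library. All 12 stellate and fibroblast markers had at least 1 read in every library. Over 1 TPM (a level per transcript length) in every library were 11 of them in Kitl_OE and 10 in Egfp_OE. In shKitl these were 9, and in shCtrl 9. The 12 markers had a summed level of 13550 to 14944 TPM in Kitl_OE and 2386 to 3206 TPM in Egfp_OE. The sum was 3419 to 7887 TPM in shKitl and 2778 to 4330 TPM in shCtrl. The 10 pancreatic epithelial markers summed to at most 18.2 TPM in any library, with Prss1, Ins1 and Ins2 at 0 in all of them, and the 6 blood markers to at most 8.90 TPM. The 4 endothelial markers summed to 7.44 to 9.10 TPM in Kitl_OE and 1.62 to 2.27 TPM in Egfp_OE, and to 3.30 to 6.96 TPM in shKitl and 2.17 to 3.19 TPM in shCtrl. The 8 mesothelial markers summed to 362 to 608 TPM in Kitl_OE and 15.6 to 20.3 TPM in Egfp_OE, and to 146 to 210 TPM in shKitl and 102 to 133 TPM in shCtrl. The stellate, mesothelial and endothelial sums were all higher in Kitl_OE than in Egfp_OE without overlap. However, of the 11 stellate markers tested 6 were called higher and 2, Thy1 and Pdgfra, lower. Of the 4 endothelial markers 2 were tested. Kdr was called higher (log2 fold change 2.69) and Tek was not called (-0.02). The part of cell state or cell mixture in the results below was not tested. In bulk RNA, fewer cells of a type and less RNA per cell cannot be told apart.

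All 10 genes were expressed in all 4 groups, with group means between 7.38 and 305 TPM. In Kitl_OE, Dusp4 led the 10 with 305 ± 68.7 TPM (SD, n = 3 here and for each mean below), against means of 106 TPM in Egfp_OE, 121 TPM in shKitl and 129.5 TPM in shCtrl, where it was the second each time. Fosl1 was the third in Kitl_OE, at 45.8 ± 23.2 TPM, but led with 175 ± 87.0 TPM in Egfp_OE, 126 ± 53.1 TPM in shKitl and 228 ± 47.5 TPM in shCtrl. Spry4 was the lowest of the 10 in each group, with 12.9 ± 2.42 TPM in Kitl_OE, 7.83 ± 3.27 TPM in Egfp_OE, 7.38 ± 0.960 TPM in shKitl and 13.04 ± 0.386 TPM in shCtrl. The first and second ranks were thus held by Fosl1 and Dusp4 in every group but Kitl_OE, where Dusp4 stood above Fosl1.

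**Figure D1:**
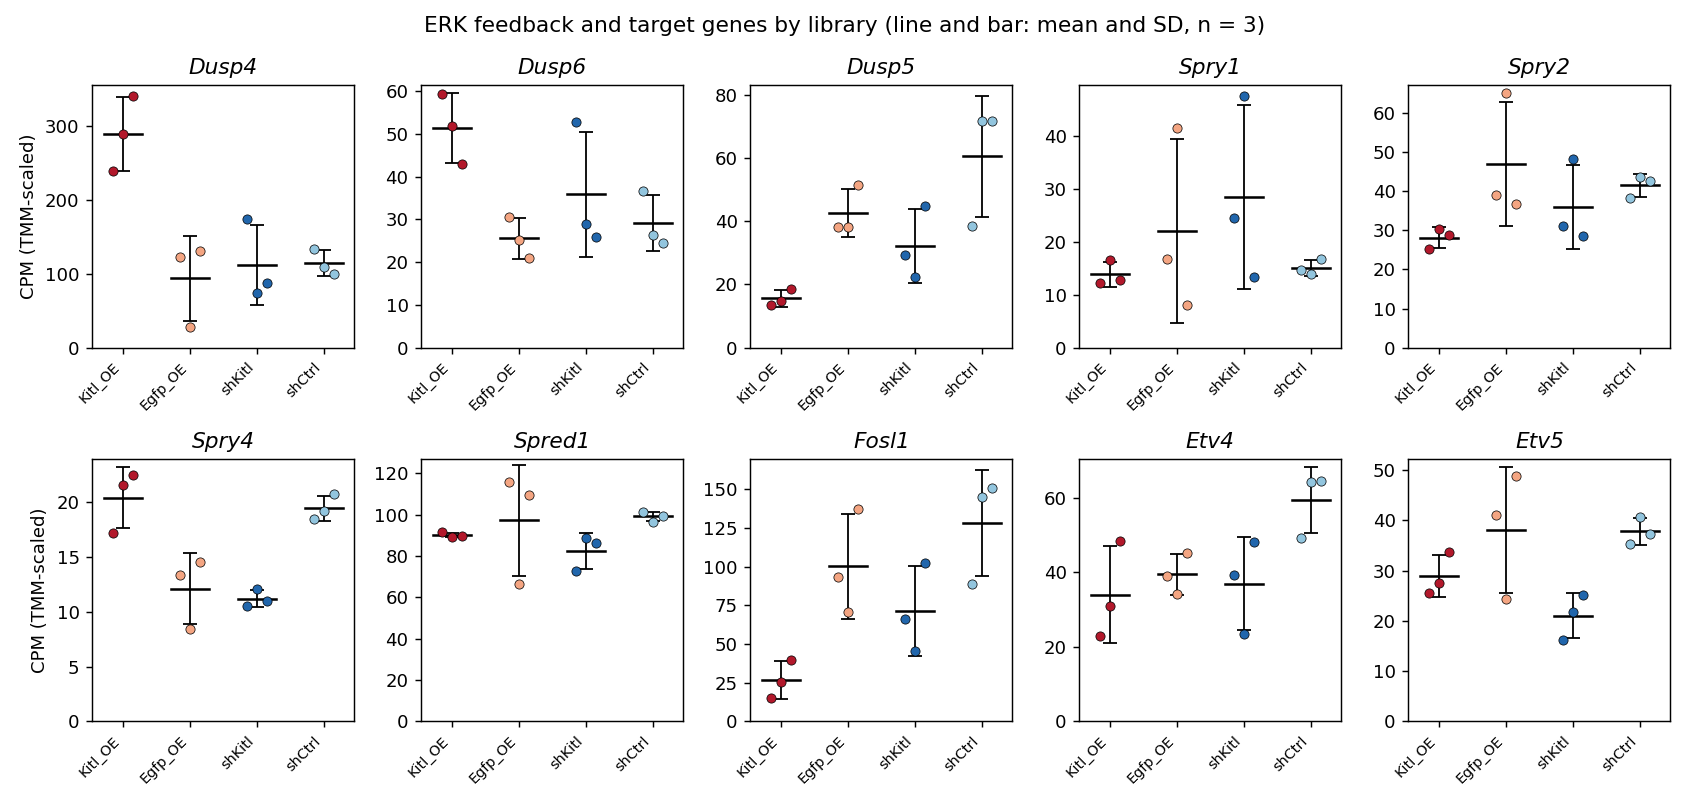
CPM (TMM-scaled) of the 10 genes in each library, 1 panel per gene, with the groups from left to right Kitl_OE, Egfp_OE, shKitl and shCtrl; points are libraries and the line and bar are mean and SD (n = 3). Dusp4 in Kitl_OE (239 to 339 CPM) stood above every other library, and Dusp5 (13.4 to 18.7 CPM) and Fosl1 (15.2 to 39.9 CPM) in Kitl_OE below every other library.

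In Kitl_OE against Egfp_OE the 10 genes gave calls in both directions, as did all genes tested. The phosphatase genes Dusp4 and Dusp6 and the inhibitor gene Spry4 were higher in Kitl_OE than in Egfp_OE, the phosphatase gene Dusp5, the inhibitor gene Spry2 and the AP-1 gene Fosl1 were lower, and Spry1, Spred1, Etv4 and Etv5 did not pass the test. These 6 of 10 genes called at an edgeR adjusted p under 0.05, 3 in each direction, stand beside 34.3% of all genes tested, 15.4% higher and 18.9% lower. The same 6 genes were those whose Kitl_OE and Egfp_OE libraries did not overlap, beside 50.5% of all genes tested, 24.9% higher and 25.6% lower. The median log2 fold change of the 10 genes was -0.31 against -0.07 over all genes, and their median absolute log2 fold change was 0.75 against 0.54. Scaling by spike-in RNA left 1 of the 6 calls, that of Fosl1, and leaving out Kitl_OE replicate 2 or Kitl_OE replicate 3 left 3. Calls over all genes changed too, from 5236 to 2351 with spike-in scaling and to between 3502 and 6150 with 1 library left out.

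Among the phosphatases, the nuclear enzyme gene Dusp4 had 239, 289 and 339 CPM in Kitl_OE, against 123, 27.3 and 131 CPM in Egfp_OE. All Kitl_OE libraries were above all Egfp_OE libraries, and Egfp_OE replicate 2 was far below its mates. The log2 fold change was 1.62 ± 0.49 (SE), a 3.08-fold ratio of means, with an edgeR adjusted p of 0.0231. Without Egfp_OE replicate 2 the log2 fold change was 1.20 with an edgeR adjusted p of 0.0162. The call did not hold with all genes that had any count (edgeR adjusted p = 0.0858), when only the groups compared were fitted (0.0628), or without Kitl_OE replicate 2 (0.0549) or Kitl_OE replicate 3 (0.0653).

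Dusp6 encodes the cytoplasmic phosphatase that is selective for ERK itself. It had 59.3, 51.7 and 42.9 CPM in Kitl_OE, against 30.5, 25.2 and 20.9 CPM in Egfp_OE. The groups did not overlap, the log2 fold change was 1.01 ± 0.28 (SE), a 2.01-fold ratio of means, and the edgeR adjusted p was 0.0160. The call was lost without Kitl_OE replicate 1 (log2 fold change 0.91, edgeR adjusted p = 0.0610) or Egfp_OE replicate 3 (0.89, edgeR adjusted p = 0.0548).

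Dusp5 encodes the inducible nuclear phosphatase of the same family, also selective for ERK, and it went the other way. It had 13.4, 14.7 and 18.7 CPM in Kitl_OE, against 38.2, 38.1 and 51.4 CPM in Egfp_OE. Every Kitl_OE library was below every Egfp_OE library, and the Kitl_OE mean was 36.6% of the Egfp_OE mean. The log2 fold change was -1.45 ± 0.30 (SE) with an edgeR adjusted p of 0.00367.

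The promoters of Dusp6 and Dusp5 are shown because these close relatives moved in opposite directions with Kitl overexpression. Each line runs 5′ to 3′ over 250 bases before and 50 bases after the RefSeq start of transcription (RefSeq, build GRCm38.p6), on the plus strand at chr10:99262981-99263280 for Dusp6 and chr19:53528895-53529194 for Dusp5, and capitals mark motif matches.
Dusp6: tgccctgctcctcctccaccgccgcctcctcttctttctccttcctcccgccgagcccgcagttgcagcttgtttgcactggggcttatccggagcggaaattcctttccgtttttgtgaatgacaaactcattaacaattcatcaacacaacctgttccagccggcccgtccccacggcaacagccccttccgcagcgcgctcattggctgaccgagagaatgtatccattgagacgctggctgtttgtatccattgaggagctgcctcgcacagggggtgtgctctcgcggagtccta
Dusp5: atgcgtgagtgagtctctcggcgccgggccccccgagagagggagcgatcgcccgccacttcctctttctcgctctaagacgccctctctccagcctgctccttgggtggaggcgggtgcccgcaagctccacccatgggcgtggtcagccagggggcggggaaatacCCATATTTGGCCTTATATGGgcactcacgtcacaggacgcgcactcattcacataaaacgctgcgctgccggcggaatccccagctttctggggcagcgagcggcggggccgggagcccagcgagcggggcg
The search covered both strands for the AP-1 motif TGANTCA, the ETS motif CCGGAA, the cyclic AMP response element TGACGTCA and the CArG box that serum response factor recognises. Dusp5 held a pair of adjacent CArG boxes, at bases -82 to -73 and -72 to -63 from the start, and each reads as a match on both strands. Of 32851 promoters of the same length, 1.63% held a CArG box, 7.81% the AP-1 motif, 14.9% the ETS motif and 1.79% the cyclic AMP response element. None of these letter patterns was in the Dusp6 window. Promoter entries were matched for 6 of the 10 genes, and Spry1, Spred1 and Etv5 held no match either. A match is a description of letters and not a measured binding site.

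Of the Sprouty and SPRED genes, which encode inhibitors acting between receptor and RAF, Spry4 was higher with Kitl overexpression. It had 17.2, 21.6 and 22.5 CPM in Kitl_OE, against 13.3, 8.45 and 14.5 CPM in Egfp_OE. The lowest Kitl_OE library was above the highest Egfp_OE library, the log2 fold change was 0.75 ± 0.21 (SE) and the edgeR adjusted p was 0.0157. It was 0.57 with an edgeR adjusted p of 0.0112 without Egfp_OE replicate 2, the lowest library. The call was lost in limma on the TPM values, when only the groups compared were fitted, and without Kitl_OE replicate 2 or Kitl_OE replicate 3.

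Spry2 was lower, with 25.2, 30.3 and 28.9 CPM in Kitl_OE against 38.9, 65.2 and 36.8 CPM in Egfp_OE. The groups did not overlap, with a log2 fold change of -0.74 ± 0.25 (SE) and an edgeR adjusted p of 0.0381, and Egfp_OE replicate 2 was well above its mates. Without that library the log2 fold change was -0.42 with an edgeR adjusted p of 0.0962, and the call was lost. It was also lost when any 1 of the 3 Kitl_OE libraries, or shCtrl replicate 2, was left out, and when only the groups compared were fitted. In all, the call was lost under 8 of 21 alternative settings. The Spry2 promoter (RefSeq, GRCm38.p6, minus strand, chr14:105896770-105897069) is shown as the other of the 6 matched windows that held a motif, an ETS match on the gene's strand at bases 34 to 39 after the start, in capitals.
Spry2: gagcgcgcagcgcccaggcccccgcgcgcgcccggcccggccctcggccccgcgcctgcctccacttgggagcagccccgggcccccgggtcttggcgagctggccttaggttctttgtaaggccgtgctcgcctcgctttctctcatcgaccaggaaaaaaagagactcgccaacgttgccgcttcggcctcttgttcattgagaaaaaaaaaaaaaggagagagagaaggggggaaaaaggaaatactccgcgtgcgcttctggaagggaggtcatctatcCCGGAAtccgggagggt

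Spry1 and Spred1 did not pass the test for overexpression. Spry1 had 12.2, 16.5 and 12.9 CPM in Kitl_OE and 16.8, 41.6 and 8.02 CPM in Egfp_OE. The Egfp_OE libraries spanned 5.19-fold, the widest span of any of the 10 genes in any group, and enclosed the Kitl_OE range. Its log2 fold change of -0.67 ± 0.53 (SE; edgeR adjusted p = 0.349) became 0.17 without Egfp_OE replicate 2. Spred1 had 91.4, 89.2 and 89.8 CPM in Kitl_OE, a span of only 1.03-fold, and 116, 66.3 and 109.5 CPM in Egfp_OE. The Kitl_OE libraries lay between Egfp_OE replicate 2 and its mates, and the log2 fold change was -0.11 ± 0.19 (SE; edgeR adjusted p = 0.688). Without that library it was -0.31 with an edgeR adjusted p of 0.0353.

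Among the transcription factors, Fosl1, which encodes the AP-1 subunit FRA1, had 15.2, 25.2 and 39.9 CPM in Kitl_OE, against 93.2, 70.4 and 137 CPM in Egfp_OE. The groups were far apart, with the Kitl_OE mean at 26.7% of the Egfp_OE mean, a log2 fold change of -1.91 ± 0.40 (SE) and an edgeR adjusted p of 0.00417. Fosl1 alone of the 6 called genes kept its call under each of the 21 alternative settings, with log2 fold changes between -2.39 and -1.61. The exons of Fosl1 (GENCODE M21, GRCm38, chromosome 19, 5447547 to 5455946, plus strand) share 1163 bases with those of Ccdc85b on the opposite strand. No source used here gives the strand setting of the counting, so reads from the shared bases cannot be told apart. Ccdc85b, looked up after the Fosl1 values were seen, had 21.7, 23.95 and 26.4 CPM in Kitl_OE, against 35.8, 152 and 47.3 CPM in Egfp_OE. Its log2 fold change was -1.71 with an edgeR adjusted p of 0.0110, and -0.77 with an edgeR adjusted p of 0.0112 without Egfp_OE replicate 2. The highest Ccdc85b library, Egfp_OE replicate 2, was the lowest Fosl1 library of its group.

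The ETS genes Etv4 and Etv5 encode members of the PEA3 group of factors. Etv4 had 22.9, 30.9 and 48.3 CPM in Kitl_OE and 39.0, 34.2 and 45.1 CPM in Egfp_OE. The Kitl_OE libraries reached both below and above the Egfp_OE range, and the log2 fold change was -0.21 ± 0.30 (SE; edgeR adjusted p = 0.614). Etv5 had 25.6, 27.5 and 33.6 CPM in Kitl_OE and 41.1, 24.4 and 48.8 CPM in Egfp_OE. Here Egfp_OE replicate 2 was below all Kitl_OE libraries and its mates were above them. The log2 fold change was -0.40 ± 0.25 (SE; edgeR adjusted p = 0.231), and without that library it was -0.62 with an edgeR adjusted p of 0.0226.

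**Figure D2:**
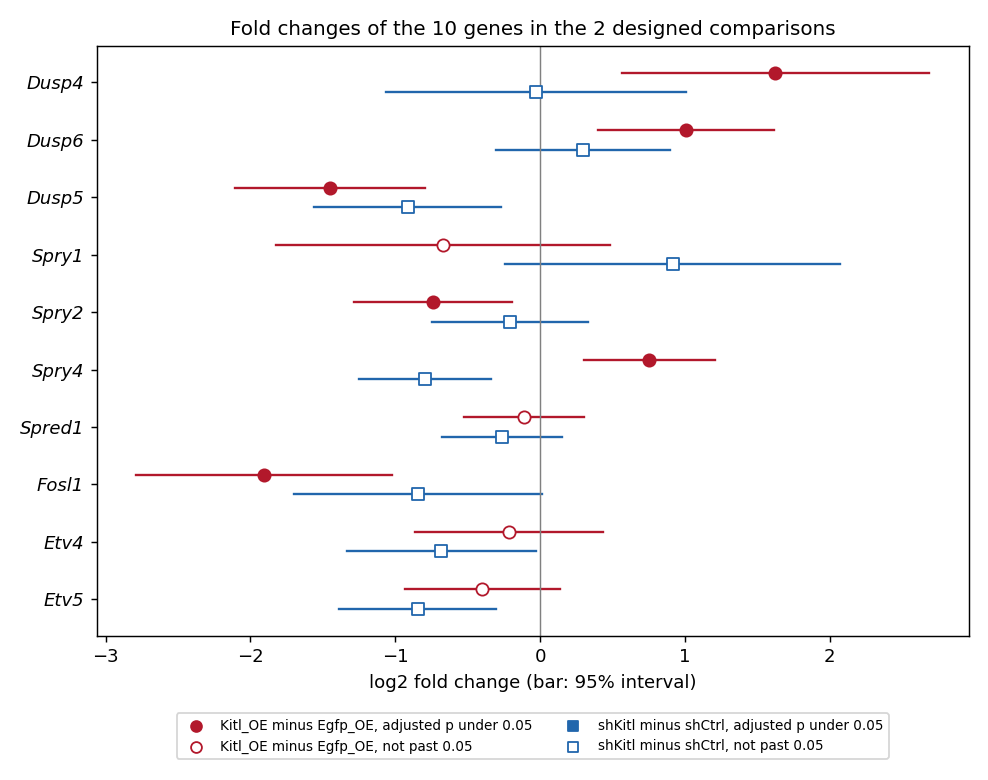
Log2 fold change of each of the 10 genes with its 95% interval, for Kitl_OE minus Egfp_OE (red circles) and for shKitl minus shCtrl (blue squares); filled symbols have an edgeR adjusted p under 0.05. In the overexpression comparison, 3 genes are filled to the right of 0 and 3 to the left, and no square is filled.

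Knockdown of Kitl gave no call. Of the 10 genes 0 had an edgeR adjusted p under 0.05, beside 0% of all genes tested. At an unadjusted p under 0.05 there were 4 of the 10 genes, Dusp5, Spry4, Etv4 and Etv5, all with lower means in shKitl, beside 15.8% of all genes. DESeq2 called 1 of the 10, Spry4, and 427 genes in all. The median log2 fold change of the 10 genes was -0.47 against 0.05 over all genes. For 4 genes, Spry4, Spred1, Etv4 and Etv5, every shKitl library lay below every shCtrl library, beside 8.64% of all genes tested with that order. In either direction, 19.7% of all genes had groups without overlap. None of the 10 genes was lower without overlap in both Kitl_OE and shKitl, beside 2.78% of all genes.

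Spry4 had 10.5, 12.1 and 11.01 CPM in shKitl, against 18.5, 19.2 and 20.7 CPM in shCtrl. Both groups were tight, and the shKitl mean was 57.5% of the shCtrl mean, with a log2 fold change of -0.80 ± 0.21 (SE) and an edgeR adjusted p of 0.190. The DESeq2 adjusted p was 0.0164, and without Egfp_OE replicate 2, which enters through the shared estimate of the spread, the edgeR adjusted p was 0.0352. Etv5 had 16.2, 21.8 and 25.2 CPM in shKitl, against 35.4, 40.8 and 37.3 CPM in shCtrl. The groups did not overlap, but the log2 fold change of -0.85 ± 0.25 (SE) had an edgeR adjusted p of 0.212.

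Etv4 had 39.3, 23.4 and 48.2 CPM in shKitl, against 49.1, 64.2 and 64.7 CPM in shCtrl. Spred1 had 72.6, 88.5 and 86.2 CPM in shKitl, against 101, 96.6 and 99.5 CPM in shCtrl. In both, every shKitl library was lower than every shCtrl library, and the shKitl libraries spanned 2.06-fold for Etv4 and 1.22-fold for Spred1, with log2 fold changes of -0.68 ± 0.30 (SE; edgeR adjusted p = 0.304) for Etv4 and -0.27 ± 0.19 (SE; edgeR adjusted p = 0.501) for Spred1. Fosl1 had 66.0, 45.2 and 103 CPM in shKitl, against 88.6, 145 and 151 CPM in shCtrl. Dusp5 had 29.3, 22.2 and 44.8 CPM in shKitl, against 38.4, 71.5 and 71.7 CPM in shCtrl. In each of these the highest shKitl library was above the lowest shCtrl library, and the log2 fold changes were -0.85 ± 0.39 (SE; edgeR adjusted p = 0.321) for Fosl1 and -0.91 ± 0.30 (SE; edgeR adjusted p = 0.231) for Dusp5.

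The remaining 4 genes had overlapping groups and no common direction. Dusp4 had 174, 74.1 and 87.9 CPM in shKitl, against 133, 109.5 and 99.7 CPM in shCtrl, a log2 fold change of -0.03 ± 0.47 (SE; edgeR adjusted p = 0.983). Dusp6 had 52.7, 28.8 and 25.9 CPM in shKitl, against 36.7, 26.3 and 24.5 CPM in shCtrl, a log2 fold change of 0.30 ± 0.28 (SE; edgeR adjusted p = 0.613). In both genes shKitl replicate 1 was the highest of the 6 libraries. Spry1 had 24.6, 47.6 and 13.4 CPM in shKitl, against 14.7, 13.9 and 16.8 CPM in shCtrl, a log2 fold change of 0.92 ± 0.53 (SE; edgeR adjusted p = 0.404). Spry2 had 31.0, 48.3 and 28.6 CPM in shKitl, against 38.2, 43.8 and 42.6 CPM in shCtrl, a log2 fold change of -0.21 ± 0.25 (SE; edgeR adjusted p = 0.706). Here shKitl replicate 2 was the highest for both Sprouty genes.

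The difference between the comparisons was tested as the change with Kitl overexpression less the change with Kitl knockdown. Spry4 was the only one of the 10 genes past the threshold, beside 14% of all genes tested, 4.07% with a positive and 9.88% with a negative difference. Its difference was 1.55 ± 0.29 on the log2 scale (SE; edgeR adjusted p = 0.00560): it was higher in Kitl_OE than in Egfp_OE and had lower values in shKitl than in shCtrl. The gap between the control lines enters this difference, with Spry4 lower in Egfp_OE than in shCtrl without overlap (log2 fold change -0.68). The call held under 19 of 20 alternative settings and was lost with spike-in scaling, where the difference was 1.61 with an edgeR adjusted p of 0.191. Dusp4 had a difference of 1.65 ± 0.67 (SE; edgeR adjusted p = 0.127) and Spry1 of -1.59 ± 0.75 (SE; edgeR adjusted p = 0.184), and neither passed. The Spry1 difference was -0.70 without Egfp_OE replicate 2 and -0.9997 without shKitl replicate 2. For Fosl1 (-1.06 ± 0.55, SE; edgeR adjusted p = 0.231) and Dusp5 (-0.53 ± 0.42, SE; edgeR adjusted p = 0.428) both comparisons had lower means in the Kitl-altered line.

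The control lines were compared as Egfp_OE minus shCtrl, which differ in vector and P number as well as in cargo. None of the 10 genes was called, beside 1.25% of all genes tested, 0.511% higher and 0.74% lower in Egfp_OE. At an unadjusted p under 0.05 there was 1 of the 10, Spry4, beside 24.4% of all genes, and DESeq2 also called Spry4. Spry4 averaged 12.1 ± 3.22 CPM in Egfp_OE and 19.5 ± 1.14 CPM in shCtrl without overlap, a log2 fold change of -0.68 ± 0.21 (SE; edgeR adjusted p = 0.0984). Etv4 averaged 39.5 ± 5.45 CPM in Egfp_OE and 59.3 ± 8.84 CPM in shCtrl, also without overlap, a log2 fold change of -0.59 ± 0.30 (SE; edgeR adjusted p = 0.246). Groups without overlap in this comparison were 28.5% of all genes, 13.9% with Egfp_OE lower. For Spry4, the libraries of Kitl_OE, at 20.4 ± 2.80 CPM, overlapped those of shCtrl, while those of Egfp_OE overlapped those of shKitl, at 11.2 ± 0.794 CPM.

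Across all 4 groups the order of CPM means separated few neighbours. Dusp4 was highest in Kitl_OE without overlap, and shCtrl, shKitl and Egfp_OE overlapped below it. Dusp5 and Fosl1 shared an order, shCtrl, Egfp_OE, shKitl and Kitl_OE from high to low, in which only Kitl_OE was clear of its neighbour. Dusp6 ran Kitl_OE, shKitl, shCtrl and Egfp_OE, with each neighbouring pair overlapping. Etv5 averaged 28.9 CPM in Kitl_OE, 38.1 CPM in Egfp_OE, 21.04 CPM in shKitl and 37.8 CPM in shCtrl, and the libraries of Kitl_OE, shKitl and shCtrl did not overlap one another. Etv4 was highest in shCtrl and the other 3 groups overlapped, and neighbouring groups of Spry1 and Spry2 overlapped throughout. For Spred1 only shKitl, the lowest, was clear of the group above it, Kitl_OE.

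**Figure D3:**
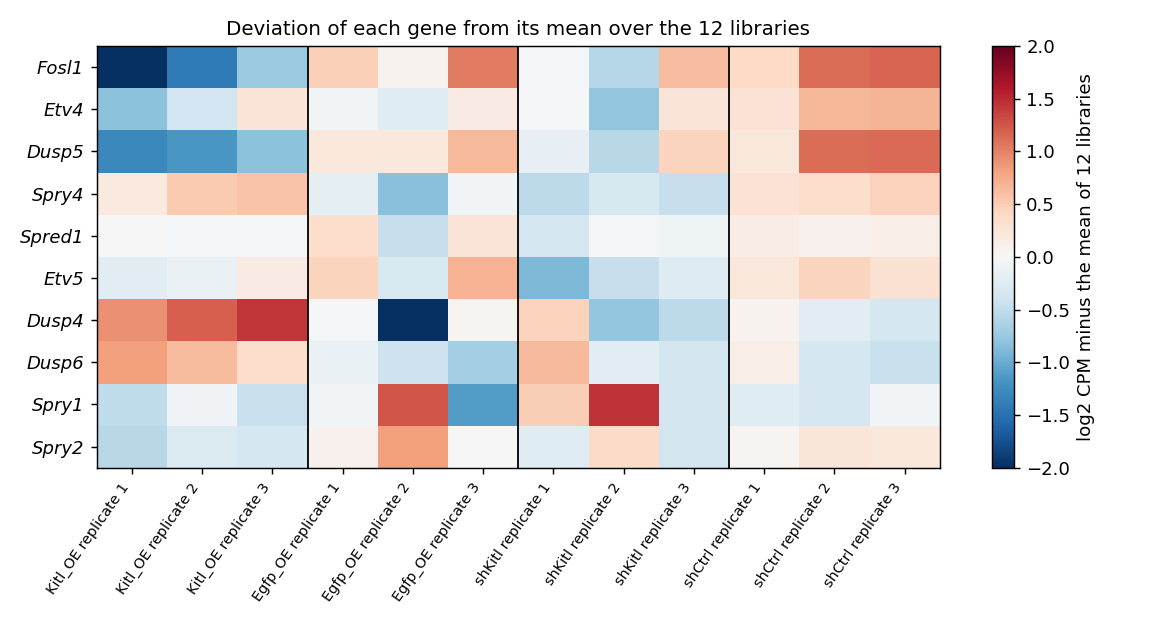
Log2 CPM of each of the 10 genes (rows) in each of the 12 libraries (columns) minus the gene's mean over the 12 libraries, with the colour scale ending at 2 in each direction and values beyond it drawn at its end. Fosl1 and Dusp5 are blue in all 3 Kitl_OE libraries, where Dusp4 and Dusp6 are red, and Egfp_OE replicate 2 is low for Dusp4 and high for Spry1 and Spry2.

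The 10 genes did not move as a single block from library to library. Over the 45 pairs of genes, Pearson's r of log2 CPM across the 12 libraries ran from -0.85 to 0.97 with a median of 0.09. As a description of the spread inside groups, with each gene's group mean taken out, Fosl1 and Etv4 had an r of 0.95, Dusp5 and Fosl1 of 0.88, and Dusp5 and Etv4 of 0.83 over the 12 libraries. Without Egfp_OE replicate 2 these were 0.96, 0.90 and 0.82 over 11 libraries. Spry1 and Spry2 had an r of 0.91, and 0.82 without that library. These values share libraries and scaling and carry no test. Several other pairs turned on Egfp_OE replicate 2: Dusp4 and Spred1 had an r of 0.66 with it and -0.85 without it, and Spry4 and Spred1 had 0.83 with it and 0.15 without it.

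Inside the groups, Fosl1, Etv4 and Dusp5 were highest and Dusp6 was lowest in the library with the highest P number, in 4 of 4 groups. This order was noticed in the values, and the share of all genes with such an order was not counted, so it is a description only. Since replicate 3 has the highest P number in every group, P number and replicate number cannot be told apart in it. With 1 slope per P number fitted over all groups, the log2 change per unit was 0.41 ± 0.12 (SE) for Fosl1, 0.30 ± 0.094 for Dusp5, 0.24 ± 0.11 for Etv4 and -0.33 ± 0.071 for Dusp6. The edgeR adjusted p was 0.710 for each, and 0% of all genes tested were called. An unadjusted p under 0.05 was reached by these 4 of the 10 genes and by 6.85% of all genes. The 4 were picked from the same values that gave the slopes, so these p-values lend the order no support. Groups of a pair also differed in P number, so values were set side by side at the numbers that both groups hold. At P 18, Fosl1 had 15.2 CPM in Kitl_OE against 70.4 CPM in Egfp_OE, and at P 19 it had 25.2 CPM against 137 CPM. Dusp6 had 59.3 CPM in Kitl_OE against 25.2 CPM in Egfp_OE at P 18, and 51.7 CPM against 20.9 CPM at P 19. The directions for Fosl1 and Dusp6 were those of the full groups at both numbers, and so were those of Dusp4, Dusp5, Spry4 and Spry2. For each of these genes the groups did not overlap, so any pair of their libraries gives the same direction. This match was fixed in advance and says nothing about the P number. For knockdown, the log2 ratios of shKitl to shCtrl at P 14 and P 15 were -0.35 and -0.020 for Dusp6 and -0.85 and -0.32 for Dusp4, where the full groups gave 0.30 and -0.03. They were -0.61 and -0.80 for Spry4, -0.70 at both numbers for Etv5, -1.07 and -0.41 for Etv4, -0.97 and -0.50 for Fosl1, and -0.79 and -0.67 for Dusp5. The sign for Dusp6 thus turned at matched numbers, and Spry1 (1.69 and -0.045) and Spry2 (0.34 and -0.61) had opposite signs at the 2 numbers. With the P number as a covariate, 5 of the 6 overexpression calls remained, all but Spry2, and the log2 fold changes were -2.39 for Fosl1, -1.75 for Dusp5 and 1.34 for Dusp6.

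**Figure D4:**
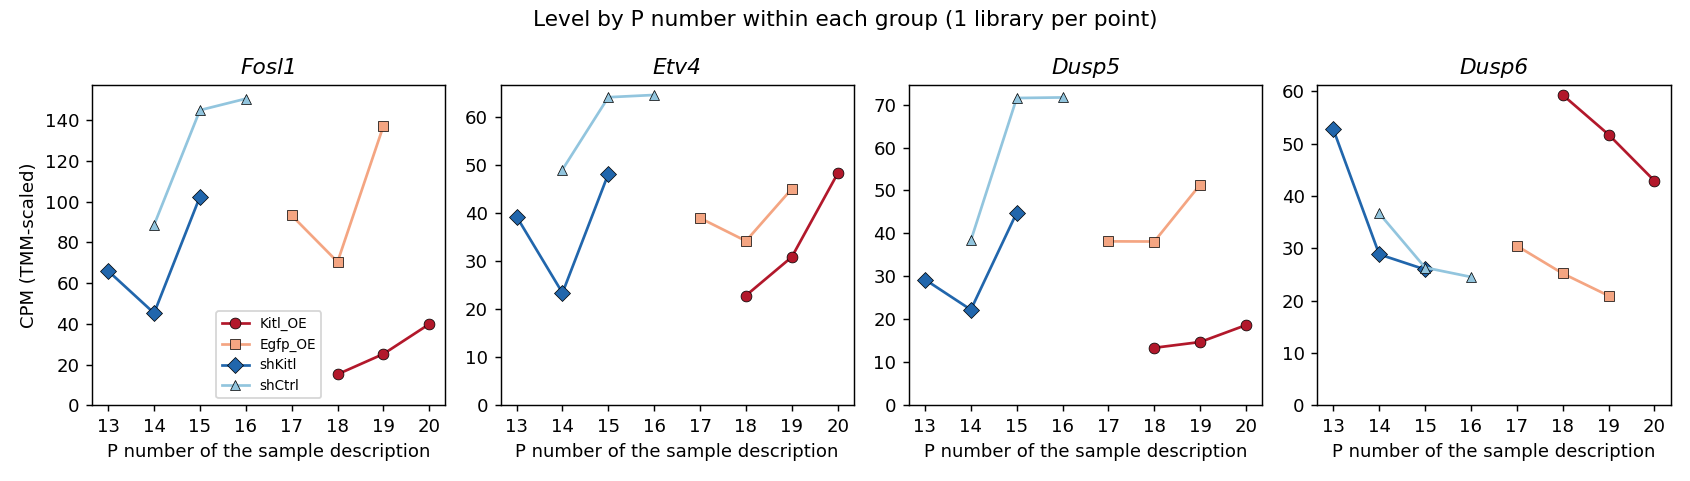
CPM (TMM-scaled) of Fosl1, Etv4, Dusp5 and Dusp6 against the P number of the sample description, 1 point per library, with lines joining the 3 libraries of a group. In each of the 4 groups the point at the highest P number is the highest of its line for Fosl1, Etv4 and Dusp5 and the lowest for Dusp6.

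The genes most like 4 of the 10 in pattern were ranked by Pearson's r of log2 CPM over the 12 libraries, as a description. Nearest to Fosl1 was Hmga2, which encodes a chromatin protein of proliferating mesenchymal cells, with an r of 0.98 and group means of 58.6 CPM in Kitl_OE, 381 CPM in Egfp_OE, 286 CPM in shKitl and 488 CPM in shCtrl. Suv39h1 and Ubash3b followed, each with an r of 0.97. For Etv4 the nearest were Mtfr2 (0.96), the small nucleolar RNA host gene Snhg4 (0.95) and the nucleolar methyltransferase gene Nop2 (0.95). For Dusp6 they were Pdcl (0.96), the lysosomal membrane gene Lamp1 (0.95) and Parm1 (0.94), and for Spry4 they were Smyd2, Btbd11 and Tubgcp3, each with an r of 0.91. The ranking left out the other 9 genes of the set; among them Dusp5 had an r of 0.97 with Fosl1.

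Other genes of the pathway, and family relatives of the 10 genes, were read from 4 further lists. Of 16 family relatives and other feedback genes, 3 were higher and 4 lower in Kitl_OE than in Egfp_OE, with a median log2 fold change of 0.22; the share called among all genes is the 34.3% given above, here and for the next 3 lists. Errfi1, which encodes an inhibitor of EGF receptors, averaged 30.7 ± 2.70 CPM in Kitl_OE and 150 ± 26.1 CPM in Egfp_OE, a log2 fold change of -2.28 ± 0.35 (SE; edgeR adjusted p = 0.000641). Among the phosphatases, Dusp8 averaged 35.5 ± 4.57 CPM in Kitl_OE and 8.65 ± 2.69 CPM in Egfp_OE, and its log2 fold change was 2.04 (edgeR adjusted p = 0.000194). Dusp9 averaged 8.43 ± 1.67 CPM in Kitl_OE and 36.5 ± 11.6 CPM in Egfp_OE, and its log2 fold change was -2.11 (edgeR adjusted p = 0.00189). Calls among the phosphatase genes of this list ran in each direction, as they did over all genes tested. Dusp2 was also lower, at 0.12 ± 0.08 CPM in Kitl_OE and 0.48 ± 0.16 CPM in Egfp_OE (edgeR adjusted p = 0.0120). Its call was lost under 3 of 20 alternative settings.

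Of 29 tested genes among 30 other ERK-responsive targets, 7 were higher and 7 lower in Kitl_OE, with a median log2 fold change of -0.06. Hmga2 was lower, with a log2 fold change of -2.70 ± 0.39 (SE; edgeR adjusted p = 0.000444). Egr3, an early growth response factor, was lower at very low levels, 0.10 ± 0.05 CPM in Kitl_OE and 1.18 ± 0.78 CPM in Egfp_OE (edgeR adjusted p = 0.00887). The ephrin receptor gene Epha4 was higher, at 27.3 ± 2.16 CPM in Kitl_OE and 2.21 ± 0.77 CPM in Egfp_OE, a log2 fold change of 3.62 (edgeR adjusted p = 0.000479). The cytokine gene Lif was higher, at 22.3 ± 3.32 CPM in Kitl_OE and 3.73 ± 0.60 CPM in Egfp_OE, a log2 fold change of 2.58 (edgeR adjusted p = 0.000212). Calls in this list were as many in each direction. They were 6 higher and 3 lower without Kitl_OE replicate 1, and 5 higher and 4 lower without Kitl_OE replicate 2.

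Of 32 genes of the cascade itself, 7 were higher and 5 lower in Kitl_OE, with a median log2 fold change of -0.01. The kinase gene Braf averaged 87.8 ± 10.8 CPM in Kitl_OE and 31.8 ± 13.03 CPM in Egfp_OE, a log2 fold change of 1.46 ± 0.28 (SE; edgeR adjusted p = 0.00249). The adaptor gene Gab1 averaged 66.0 ± 4.92 CPM in Kitl_OE and 23.9 ± 2.40 CPM in Egfp_OE (edgeR adjusted p = 0.000795). Rap1gap, which encodes an inactivator of RAP1, was higher by 1.92 on the log2 scale (edgeR adjusted p = 0.00475), and Rasa1, which encodes an inactivator of RAS, was lower, with a log2 fold change of -1.36 (edgeR adjusted p = 0.00337). Calls in this list ran both ways, as they did over all genes tested, of which 15.4% were higher and 18.9% lower. Without Kitl_OE replicate 2 the calls were 4 higher and 3 lower, and without Egfp_OE replicate 2 they were 7 higher and 8 lower.

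Of 31 receptor tyrosine kinase genes 24 were tested, and 5 were higher and 9 lower in Kitl_OE, with a median log2 fold change of -0.11. The calls were 7 higher and 6 lower with the P number as a covariate, where the median was 0.058, and also when only the groups compared were fitted. Pdgfra, a receptor of platelet-derived growth factors and also on the stellate marker list, averaged 15.2 ± 2.84 CPM in Kitl_OE and 195 ± 36.2 CPM in Egfp_OE, a log2 fold change of -3.68 ± 0.53 (SE; edgeR adjusted p = 0.000412). The WNT5A receptor gene Ror2 averaged 0.60 ± 0.17 CPM in Kitl_OE and 20.4 ± 4.74 CPM in Egfp_OE, a log2 fold change of -5.07 (edgeR adjusted p = 8.64e-06). Flt4 (log2 fold change -4.50, edgeR adjusted p = 5.57e-05) and Ror1 (-2.80, edgeR adjusted p = 0.0170) were lower too, at low levels. The Ror1 call was lost under 4 of 21 alternative settings, and the Flt4 call held under all 21. In shKitl against shCtrl edgeR called 0 genes in each of these 4 lists, and at an unadjusted p under 0.05 there were 2 of the 16 relatives, 6 of the 29 targets, 4 of the 32 cascade genes and 7 of the 24 receptors, beside 15.8% of all genes. DESeq2 called 2 of the targets and 2 of the receptors, 1 in each direction in both lists.

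**Figure D5:**
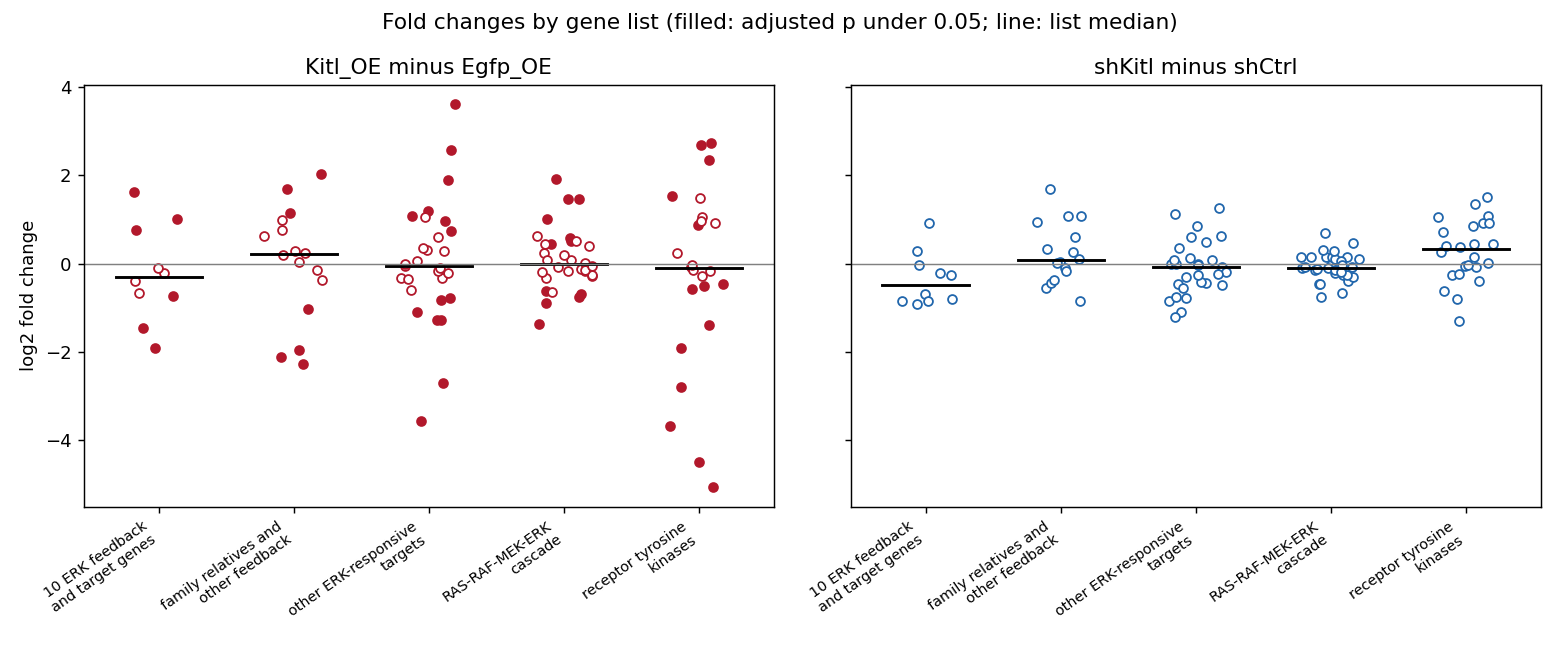
Log2 fold change of each tested gene in the 10-gene set and in 4 further lists, for Kitl_OE minus Egfp_OE (left) and shKitl minus shCtrl (right); filled points have an edgeR adjusted p under 0.05, lines are list medians, and sideways offsets carry no meaning. On the left each list has filled points on both sides of 0, and on the right no point is filled.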

How the data were processed

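The authors deposited raw read counts per gene and, for the same 12 libraries, TPM values; per the submitters' processing notes STAR 2.5.2b, featureCounts from Subread 1.5.2, DESeq2 and GRCm38 were used. No source used here gives the gene lengths or the strand setting. Of 49763 rows, 92 were ERCC spike-ins, left out of library totals and fits. Fits used edgeR 4.0.16 (R 4.3.3) on the counts: filterByExpr by group, TMM scaling and a robust quasi-likelihood fit with 1 coefficient per group over all 12 libraries, which shared 1 dispersion estimate (common biological coefficient of variation 0.292). P-values were two-sided and adjusted by Benjamini-Hochberg over 15271 genes, with a threshold of 0.05. With 3 libraries against 3, exact permutation cannot go below 0.1. The scripts were tested on simulated data.

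The 10 genes and all lists were chosen with earlier results of these data known. Named list genes were the 4 largest changes past the threshold in each list. The 3 nearest genes in pattern came from genes with a mean of at least 5 CPM and no predicted gene model. Alternatives were DESeq2 size factors, spike-in scaling, DESeq2 1.42.0, all genes with any count, limma 3.58.1 on log2 TPM with a pseudocount of 1 or 0.1, only the groups compared, a replicate block, the P number as a covariate, and each library left out.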

Additional observations from a re-analysis of the deposited data

Results flagged for a closer look

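The difference between the comparisons was read only for Kitl, the 10 genes and the 4 genes named from each of the 4 further lists. Beside 14% of all genes, 11 of them had an overexpression change that differed from the knockdown change past an edgeR adjusted p of 0.05. Of these 11, the genes other than Kitl and Spry4 were named for a large change with overexpression. That change is 1 term of this difference, so their values are a description, and the cause was not tested. Kitl itself differed by 2.52 on the log2 scale (edgeR adjusted p = 0.00110) and Spry4 by 1.55 (edgeR adjusted p = 0.00560). The gap between the control lines given above enters the Spry4 difference. Among the family relatives and other feedback genes the difference was 1.99 for Dusp8 (edgeR adjusted p = 0.00425) and -2.62 for Errfi1 (edgeR adjusted p = 0.00482). Among the targets it was 2.99 for Epha4 (edgeR adjusted p = 0.0164), -4.06 for Egr3 (edgeR adjusted p = 0.0316) and -1.93 for Hmga2 (edgeR adjusted p = 0.0317), and for the kinase gene Braf it was 1.54 (edgeR adjusted p = 0.0243). Among the receptors it was -4.41 for Pdgfra (edgeR adjusted p = 0.00206), -4.11 for Flt4 (edgeR adjusted p = 0.00110) and -4.80 for Ror2 (edgeR adjusted p = 0.000148). Of 20 alternative settings, the call of the difference was lost in 13 for Egr3, 11 for Hmga2 and 6 for Braf, and in 1 each for Spry4, Kitl and Flt4.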

How the results depend on the processing

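Scaling by spike-in totals, which moved the median log2 fold change of all genes by 0.07 for overexpression, -0.11 for knockdown, 0.18 for the difference between them and -0.40 for Egfp_OE minus shCtrl, left 1 of the 6 overexpression calls among the 10 genes and gave 2351 calls over all genes (5236 in the fit as reported). It gave 0 of the 10 genes and 919 genes in all (2131 as reported) for the difference, with 17.6% of these higher against 29.2%, and 10 genes (191 as reported) for Egfp_OE minus shCtrl, 0% of them higher against 40.8%. Among the further lists it gave 2 higher and 2 lower of the relatives, 6 and 2 of the targets, 2 and 0 of the cascade and 4 and 5 of the receptors for overexpression. Fitting only the groups compared gave 3 of the 10 genes for overexpression and 0 genes for Egfp_OE minus shCtrl. DESeq2 gave 1 of the 10 genes and 427 genes for knockdown, and 1 of the 10 and 1461 genes, 55.1% of them higher, for Egfp_OE minus shCtrl. With limma on log2(TPM + 1) there were 7 genes for knockdown and 1291 for the difference, and on log2(TPM + 0.1) 104 genes for Egfp_OE minus shCtrl, 26.9% of them higher. With all genes that had any count there were 23 genes for knockdown and 349 for Egfp_OE minus shCtrl. The P number as a covariate gave 3 of the 10 genes for the difference, Dusp6 (1.41) and Fosl1 (-1.95) beside Spry4, and 0 genes for Egfp_OE minus shCtrl. Where no change of genes tested or samples was made, the cause was not tested.

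Leaving out 1 library at a time gave 3 to 7 of the 10 genes and 3502 to 6150 genes for overexpression, 0 to 1 of the 10 and 0 to 277 genes for knockdown, 1 to 2 of the 10 and 1245 to 2842 genes for the difference, and 0 to 771 genes for Egfp_OE minus shCtrl. Signs turned only in genes that were not called: for overexpression, Etv4 ranged from -0.53 to 0.024 (without Kitl_OE replicate 1), Spred1 from -0.31 to 0.039 (without Egfp_OE replicate 1) and Spry1 from -1.07 to 0.17 (without Egfp_OE replicate 2). For knockdown, Dusp6 ranged from -0.10 (without shKitl replicate 1) to 0.49 and was -0.069 with the P number as a covariate, and Dusp4 ranged from -0.50 to 0.20, positive without shKitl replicate 2, shKitl replicate 3 or shCtrl replicate 1. For the difference, Spred1 ranged from -0.017 (without Egfp_OE replicate 2) to 0.31, and Etv4 was -0.070 with the P number as a covariate.

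The correlation of deviations from the group means was taken for same-numbered replicates 1, 2 and 3. It was 0.041, 0.28 and 0.23 between Kitl_OE and Egfp_OE and 0.14, -0.38 and 0.58 between shKitl and shCtrl. Not every pair was over 0.1, so the fit as reported treats the samples as sharing only a number. For replicate 3 the correlation was positive in each pair of groups, from 0.23 to 0.58, and that fit does not model this. Between libraries of the same P number it was 0.60 and 0.45 for shKitl with shCtrl and -0.0014 and -0.25 for Kitl_OE with Egfp_OE. The replicate block gave 6, 0, 1 and 0 of the 10 genes for overexpression, knockdown, the difference and Egfp_OE minus shCtrl, and 5186, 0, 2118 and 82 genes in all. There were 3 libraries a group and 211 to 9947 reads per library for the 10 genes. The parts of counting error and of the spread between libraries in these limits were not tested.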
